A study of Mus musculus with 7 samples.

Results

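The 9 genes described here encode fatty acid desaturases (Scd1, Scd2, Fads1, Fads2, Fads3) and elongases (Elovl1, Elovl5, Elovl6, Elovl7). They were chosen by symbol from the 55417 gene symbols of a count table, with their levels in the knockdown and control libraries already known. Their differences from the control hairpin, and the counts of members past the threshold of the fit, are therefore a description, with no p-value for a member and no finding drawn from them. RNA sequencing was done on RAW264.7 cells, a mouse macrophage-like line, carrying 1 of 3 short hairpins. The hairpins shDpep2.968 (n = 2 libraries) and shDpep2.759 (n = 2) are directed against Dpep2, which encodes a membrane-bound dipeptidase, and shNT (n = 3) is the control hairpin, so that every group carried a hairpin. The labels do not say whether the replicates were separate cultures or whether a line was a single clone, so p-values reflect variation between these libraries, part of which may be technical.

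Fatty acid desaturases place double bonds into acyl chains at the endoplasmic reticulum, taking electrons from NADH through cytochrome b5 reductase and cytochrome b5. Elongases add carbon units from malonyl-CoA to acyl chains and catalyse the condensing step of the elongation cycle. In macrophages these enzymes set the share of saturated, monounsaturated and polyunsaturated chains in membrane phospholipids, from which eicosanoids are made. Several of the desaturase genes are known targets of the sterol regulatory element-binding proteins and of the oxysterol receptors LXR.

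Total counts per library ran from 16548648 to 18401060, and 13329 genes had enough counts to be tested. Levels are given as CPM, a gene's count scaled to a common library total, after normalisation by trimmed mean of M-values (TMM). Dpep2 had 22.4 and 17.9 CPM in the shDpep2.968 libraries and 24.9 and 19.5 CPM in the shDpep2.759 libraries, against 55.6, 60.3 and 52.1 CPM in the shNT libraries. Of 10 macrophage markers 9 were tested, and Mertk was at 0.347 CPM or less. Their summed level was 15065 to 15154 CPM with shDpep2.968, 17041 to 20745 CPM with shDpep2.759 and 14447 to 15885 CPM with shNT. Lyz2 alone, at 8817 to 14050 CPM, was the largest part of that sum. The macrophage marker Adgre1 had a log2 fold change of 0.17 with shDpep2.968 (edgeR adjusted p = 0.387) and rose with shDpep2.759 (0.96, adjusted p = 0.000455), and the hairpins differed (-0.79, shDpep2.968 minus shDpep2.759, adjusted p = 0.0164). Fcgr1 stood at 0.41 with shDpep2.968 (edgeR adjusted p = 0.137) and rose with shDpep2.759 (0.77, adjusted p = 0.0112), and the test between hairpins gave -0.37 (adjusted p = 0.332). Averaged over both hairpins, Adgre1 and Fcgr1 were the 2 macrophage markers called, both higher. Itgam went the other way with shDpep2.968 (-0.48, edgeR adjusted p = 0.0581) and stood at 0.08 with shDpep2.759 (adjusted p = 0.812). Markers of adipocytes, hepatocytes and epithelial cells, other cell types rich in lipid enzymes, summed to 0.242 CPM or less in every library. Fibroblast markers, mainly Dcn and Lum, summed to 2.20 to 2.25 CPM in the shDpep2.968 libraries, 3.48 to 3.57 CPM in the shDpep2.759 libraries and 0.725 to 1.64 CPM in the shNT libraries. Of these Dcn, at 7 to 42 counts per library, was called higher averaged over both hairpins (log2 fold change 1.37, edgeR adjusted p = 0.0274). By hairpin it was called with shDpep2.759 (1.99, edgeR adjusted p = 0.00778) and not with shDpep2.968 (0.74, adjusted p = 0.289). Lum was not called averaged (adjusted p = 0.0704). Col1a1, Col1a2, Col3a1 and Pdgfra had too few counts to be tested (0 to 10 per library). The part of either marker list in the results was not tested. In bulk RNA, fewer expressing cells and less RNA per cell cannot be told apart.

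RefSeq promoter windows (GRCm38.p6, 250 bases before to 50 bases after the start site) were given for 6 of the 9 genes. Scd1, Scd2 and Fads1 had no window. The windows of Fads2, Elovl5 and Elovl1 are shown because Fads2 was lower with the Dpep2 hairpins, while the levels of the elongases Elovl5 and Elovl1 overlapped between the groups. The Fads2 window is chr19:10101454-10101753 on the minus strand, the Elovl5 window is chr9:77917115-77917414 on the plus strand, and the first of the Elovl1 windows is chr4:118427843-118428142 on the plus strand. Capitals mark matches on either strand to GGGCGG (the Sp1 box), CCAAT (the NF-Y box) or CACGTG (an E-box).
Fads2: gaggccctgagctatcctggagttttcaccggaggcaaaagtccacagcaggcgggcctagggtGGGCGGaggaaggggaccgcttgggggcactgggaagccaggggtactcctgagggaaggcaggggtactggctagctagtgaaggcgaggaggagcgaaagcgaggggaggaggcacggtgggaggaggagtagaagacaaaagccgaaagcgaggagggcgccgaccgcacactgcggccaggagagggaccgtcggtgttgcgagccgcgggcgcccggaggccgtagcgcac
Elovl5: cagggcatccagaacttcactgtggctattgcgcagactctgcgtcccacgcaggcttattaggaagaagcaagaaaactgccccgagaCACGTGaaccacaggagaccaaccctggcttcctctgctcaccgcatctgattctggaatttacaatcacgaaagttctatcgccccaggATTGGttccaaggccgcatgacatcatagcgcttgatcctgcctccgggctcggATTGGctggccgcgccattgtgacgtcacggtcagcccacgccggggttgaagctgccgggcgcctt
Elovl1: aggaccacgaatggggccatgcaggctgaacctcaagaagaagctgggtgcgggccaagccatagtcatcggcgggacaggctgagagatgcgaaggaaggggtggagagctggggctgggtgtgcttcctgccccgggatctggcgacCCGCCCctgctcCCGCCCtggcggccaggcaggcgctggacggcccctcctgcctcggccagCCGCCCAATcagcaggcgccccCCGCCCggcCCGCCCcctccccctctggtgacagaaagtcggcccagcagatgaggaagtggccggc
In the Fads2 window 1 Sp1 box lay 186 bases before the start site. The Elovl5 window held 2 CCAAT boxes, both on the opposite strand, at 71 and 17 bases before the start site, and an E-box at 161 bases before it. The Elovl1 window held 5 Sp1 boxes on the opposite strand and 1 CCAAT box at 35 bases before the start site, which overlaps an Sp1 box. Of 32851 windows of 300 bases, 35.7% held GGGCGG, 37.4% held CCAAT and 7.15% held CACGTG. The core of the sterol regulatory element, searched as TCACNCCAC, was in 1.24% of all windows and in none of the windows given for these genes. Scd1, Scd2 and Fads1 were not searched, so nothing is said of their promoters, and other forms of the element were not searched in any window.

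The stearoyl-CoA desaturases, which make oleate and palmitoleate from saturated chains, were the members with the largest difference from shNT. Scd1 had 4.16 and 2.77 CPM in the shDpep2.968 libraries and 18.3 and 4.51 CPM in the shDpep2.759 libraries, against 66.7, 93.3 and 85.4 CPM in the shNT libraries. Every Dpep2 hairpin library lay below every shNT library, and shDpep2.759 replicate 1 was the highest of the hairpin libraries. Group means were 3.46 ± 0.989 CPM (SD, n = 2) with shDpep2.968, 11.4 ± 9.78 CPM (n = 2) with shDpep2.759 and 81.8 ± 13.7 CPM (n = 3) with shNT. Averaged over both hairpins, the log2 fold change of Scd1 was -3.70 (SE 0.51, 95% interval -5.04 to -2.36), which is 7.71% of the shNT level. Of 13329 log2 fold changes it ranked 11 from the lowest.

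Scd2, the stearoyl-CoA desaturase with the higher level here, had 148 and 123 CPM in the shDpep2.968 libraries and 323 and 191 CPM in the shDpep2.759 libraries, against 669, 699.7 and 721 CPM in the shNT libraries. The groups did not overlap, and the shNT libraries lay close together. Group means were 135 ± 17.9 CPM (SD, n = 2) with shDpep2.968, 257 ± 93.4 CPM (n = 2) with shDpep2.759 and 696 ± 26.1 CPM (n = 3) with shNT. The averaged log2 fold change was -1.90 (SE 0.16, 95% interval -2.24 to -1.56), or 26.8% of the shNT level. Scd1 and Scd2 share sequence with each other and with Scd3 and Scd4. Of the 31-base words in their transcripts, 8.14% for Scd1 and 6.81% for Scd2 also occur in another gene, so a part of their reads can be divided uncertainly. Scd3 had 1 to 4 counts and Scd4 had 4 to 8 counts per library.

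The balance of both stearoyl-CoA desaturases also differed between the groups. Scd1 made up 2.73% (exact 95% binomial interval 2.14% to 3.43%) and 2.20% (1.63% to 2.91%) of the summed Scd1 and Scd2 counts in the shDpep2.968 libraries. It made up 5.37% (4.82% to 5.97%) and 2.31% (1.82% to 2.87%) in the shDpep2.759 libraries. In the shNT libraries the share was 9.07% (8.57% to 9.59%), 11.8% (11.2% to 12.3%) and 10.6% (10.1% to 11.1%). The intervals cover counting error only. All 4 hairpin libraries lay below all 3 shNT libraries, so Scd1 was lower by a larger factor than Scd2 in each.

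**Figure D1:**
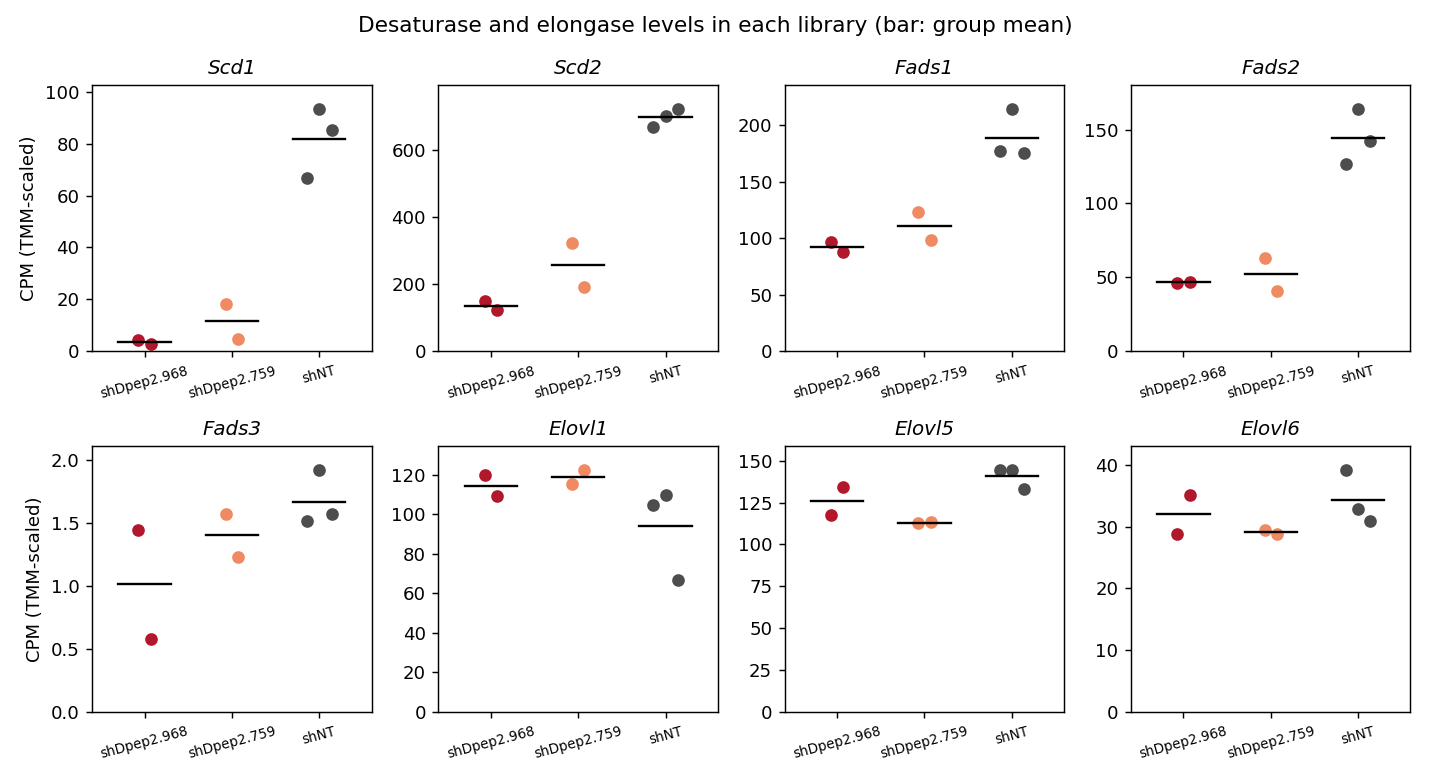
Levels of the 8 detected genes in each library, in TMM-scaled CPM on axes that start at 0. Points are libraries and bars are group means for shDpep2.968, shDpep2.759 and shNT. For Scd1, Scd2, Fads1 and Fads2 every hairpin library lies below every shNT library, and for Fads3, Elovl1, Elovl5 and Elovl6 the groups overlap.

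The front-end desaturases Fads2 and Fads1, which act before and after an elongation step on the way to arachidonate and eicosapentaenoate, were both lower with the Dpep2 hairpins. Fads2 had 46.1 and 47.1 CPM in the shDpep2.968 libraries and 63.2 and 40.9 CPM in the shDpep2.759 libraries, against 127, 164 and 142 CPM in the shNT libraries. No hairpin library reached the lowest shNT library. Group means were 46.6 ± 0.651 CPM (SD, n = 2) with shDpep2.968, 52.1 ± 15.8 CPM (n = 2) with shDpep2.759 and 144 ± 18.6 CPM (n = 3) with shNT, and the averaged log2 fold change was -1.55 (SE 0.14, 95% interval -1.86 to -1.24), or 34.1% of the shNT level.

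Fads1 had 96.9 and 87.4 CPM in the shDpep2.968 libraries and 123 and 98.5 CPM in the shDpep2.759 libraries, against 177, 214 and 175 CPM in the shNT libraries. The groups again did not overlap, but the distance between them was smaller. Group means were 92.2 ± 6.69 CPM (SD, n = 2) with shDpep2.968, 111 ± 17.4 CPM (n = 2) with shDpep2.759 and 189 ± 22.1 CPM (n = 3) with shNT. The averaged log2 fold change of Fads1 was -0.90 (SE 0.12, 95% interval -1.15 to -0.65), or 53.5% of the shNT level. Its interval and that of Fads2 do not overlap, but both genes were measured in the same libraries and their difference was not tested.

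Within the pair, Fads2 supplied a smaller share of the summed Fads2 and Fads1 counts with the Dpep2 hairpins. The share was 32.3% (exact 95% binomial interval 30.4% to 34.1%) and 34.99% (33.1% to 37.0%) with shDpep2.968, and 34.0% (32.3% to 35.6%) and 29.4% (27.6% to 31.3%) with shDpep2.759. With shNT it was 41.8% (40.4% to 43.1%), 43.3% (42.1% to 44.5%) and 44.8% (43.5% to 46.1%). The groups did not overlap.

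**Figure D2:**
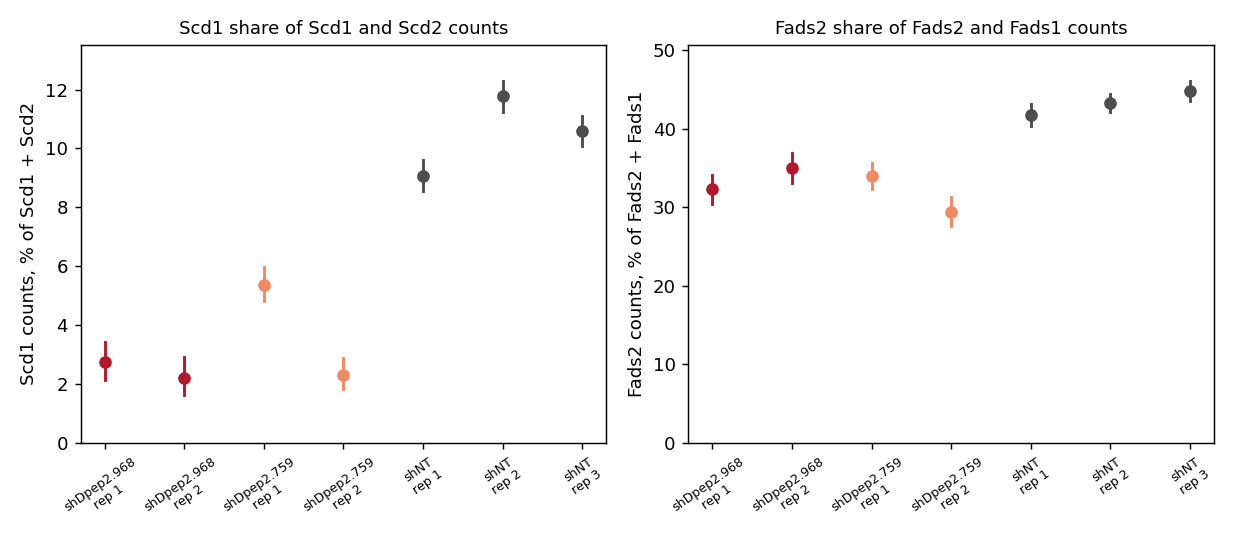
Share of Scd1 in the summed Scd1 and Scd2 counts (left) and of Fads2 in the summed Fads2 and Fads1 counts (right), in percent, per library, with exact 95% binomial intervals as bars. The hairpin libraries reach at most 5.37% and 34.99%, and the shNT libraries lie at 9.07% or more and 41.8% or more.

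Fads3, a desaturase of the same gene cluster that is known for acting on the sphingoid base of ceramides, was close to the limit of detection at 10 to 35 counts per library. It had 1.45 and 0.576 CPM in the shDpep2.968 libraries and 1.57 and 1.23 CPM in the shDpep2.759 libraries, against 1.51, 1.92 and 1.57 CPM in the shNT libraries. The groups overlapped, and the averaged log2 fold change of -0.48 has a 95% interval of -1.20 to 0.23. The averaged value of Fads1 lies inside that interval, so a change of that size in Fads3 was neither shown nor put outside the interval. In the RefSeq gene order of GRCm38.p6 the cluster runs Fads3, Fads2, Fads1 between Rab3il1 and Fen1. These flanking genes, looked up after the member values were known, had averaged log2 fold changes of 0.14 and 0.16 (edgeR adjusted p = 0.523 and 0.351). Fads2 and Fads3 share 0.729% and 0.621% of their 31-base words with each other.

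The elongases were near the shNT level. Elovl6, which extends palmitate to stearate and so supplies the substrate of the stearoyl-CoA desaturases, had 28.9 and 35.2 CPM in the shDpep2.968 libraries and 29.4 and 28.8 CPM in the shDpep2.759 libraries, against 39.2, 32.9 and 31.01 CPM in the shNT libraries. The groups overlapped, and the averaged log2 fold change was -0.17 (SE 0.12, 95% interval -0.44 to 0.09). That interval lies wholly above those of the 4 lower desaturases, which is a description, since differences between members were not tested. Elovl6 shares 5.53% of its 31-base words with the gene model Gm11295, which had 0 counts.

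Elovl5, the elongase of polyunsaturated chains that works between Fads2 and Fads1, had 117 and 135 CPM in the shDpep2.968 libraries and 113 and 113 CPM in the shDpep2.759 libraries, against 144, 144 and 133 CPM in the shNT libraries. The shDpep2.759 libraries lay below all shNT libraries, whereas shDpep2.968 replicate 2 lay among them. The averaged log2 fold change was -0.24 (SE 0.10, 95% interval -0.45 to -0.03), or 84.8% of the shNT level. It did not pass the threshold over all tested genes, but did when counts were corrected for the GC content and length of genes (log2 fold change -0.30), and in none of the other 15 alternatives.

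Elovl1, which makes saturated and monounsaturated very long chains for sphingolipids, was the 1 tested member with a positive value. It had 119.7 and 109 CPM in the shDpep2.968 libraries and 115 and 122 CPM in the shDpep2.759 libraries, against 105, 109.9 and 66.9 CPM in the shNT libraries. The groups overlapped, and shNT replicate 3 was the lowest library by a wide gap. The averaged log2 fold change was 0.31 (SE 0.15, 95% interval -0.02 to 0.64), and it was 0.12 without shNT replicate 3. Elovl7, another elongase of very long saturated chains, had 0 counts in all 7 libraries. A count of 0 allows up to 3 counts, or 0.163 to 0.181 CPM per library.

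Of the 8 tested members, 4 were called lower and 0 higher averaged over both hairpins (edgeR quasi-likelihood test, Benjamini-Hochberg adjusted p under 0.05), namely Scd1, Scd2, Fads1 and Fads2. Of all tested genes 4.15% were called lower and 3.44% higher in that comparison. The median log2 fold change was -0.69 over the 8 members and 0.00 over all tested genes. The same 4 members had all hairpin libraries below all shNT libraries, as had 9.51% of tested genes, while 9.03% had them all above. These counts describe genes picked with the values known. Left out singly, shDpep2.968 replicate 2, shNT replicate 2 and shNT replicate 3 lowered the count of genes called in either direction to 492, 356 and 321, against 1012 with all libraries.

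The calls of Scd2, Fads1 and Fads2 were kept in all 16 alternatives of the averaged comparison, with log2 fold changes of -2.11 to -1.74, -0.99 to -0.81 and -1.73 to -1.41. The call of Scd1 was lost without shDpep2.968 replicate 1 (log2 fold change -3.86), shDpep2.968 replicate 2 (-3.57), shNT replicate 1 (-3.82), shNT replicate 2 (-3.61) or shNT replicate 3 (-3.67). It was also lost when all hairpin libraries were fitted as 1 group (-3.45). In that gene the hairpin libraries differed most among themselves, and its log2 fold change was -3.36 or lower in each of the 16 alternatives.

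Each hairpin was then set against the same shNT libraries, which both comparisons share. With shDpep2.968 the log2 fold changes were -4.56 for Scd1, -2.36 for Scd2, -1.04 for Fads1 and -1.63 for Fads2, and these 4 members were called lower (2.96% of all tested genes were, and 2.29% were called higher). With shDpep2.759 the values were -2.83 for Scd1, -1.44 for Scd2, -0.77 for Fads1 and -1.47 for Fads2, and the last 3 were called lower (2.00% of all tested genes, with 2.72% called higher). The elongases with shDpep2.968 had values of 0.29 for Elovl1, -0.16 for Elovl5 and -0.10 for Elovl6. With shDpep2.759 these were 0.34, -0.32 and -0.24. The shDpep2.968 call of Scd1 was lost without either shDpep2.968 library (-4.87 without replicate 1, -4.30 without replicate 2) or any shNT library (-4.69, -4.46 and -4.52 without replicates 1, 2 and 3), and with no low-count filter (-4.57), and that of Fads1 without shDpep2.968 replicate 2 (-0.96). With shDpep2.759, Scd1 was called by DESeq2 and limma-voom. Its value was -4.18 without shDpep2.759 replicate 1 and -2.16 without shDpep2.759 replicate 2, each with 1 library of that hairpin left.

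**Figure D3:**
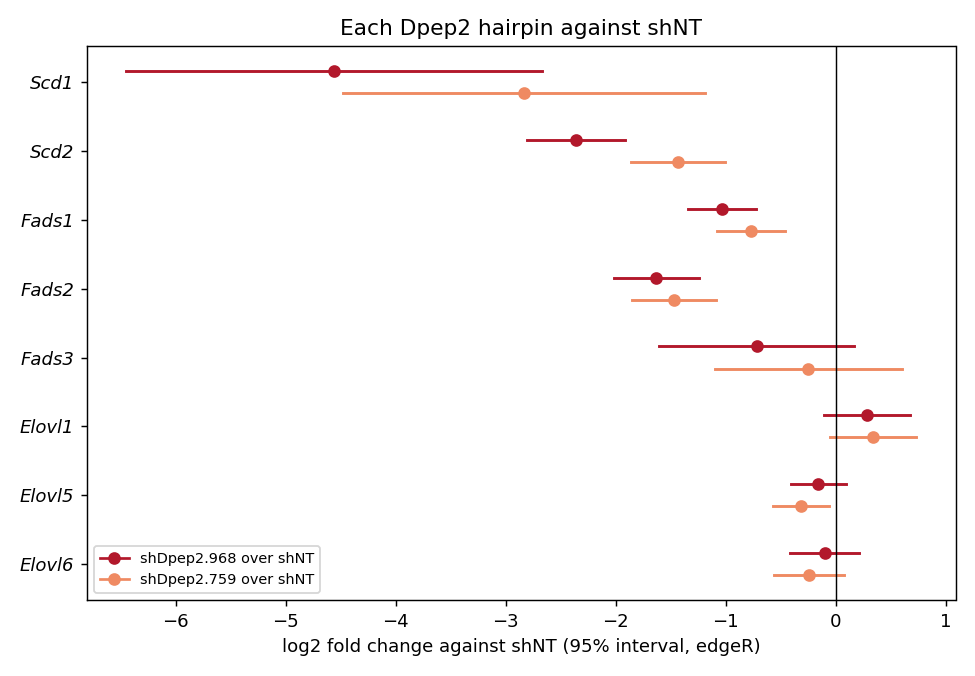
Log2 fold change of each tested gene with shDpep2.968 (upper point) and shDpep2.759 (lower point) over shNT, with edgeR 95% intervals as bars. Scd1 and Scd2 lie further from 0 with shDpep2.968 (-4.56 and -2.36) than with shDpep2.759 (-2.83 and -1.44), with overlapping intervals for Scd1.

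The direct test between the hairpins, which equals the test of whether their effects differ, called 0 of the 8 members (edgeR adjusted p under 0.05). Of all tested genes 0.585% were called lower and 0.255% higher with shDpep2.968, so a count of 0 among 8 does not set the members apart. Scd2 came closest, with shDpep2.968 minus shDpep2.759 at -0.92 on the log2 scale (SE 0.21, 95% interval -1.38 to -0.47, unadjusted p = 0.000761, edgeR adjusted p = 0.0652). Both shDpep2.968 libraries lay below both shDpep2.759 libraries for Scd2. Over the 15 alternatives its adjusted p ran from 5.26e-06 to 0.51, and DESeq2 called it. Without shDpep2.759 replicate 2 the difference was -1.25, and without shDpep2.759 replicate 1 it was -0.50, each with 1 library of that hairpin left. For Scd1 the difference was -1.73 (95% interval -3.68 to 0.23, edgeR adjusted p = 0.38), and leaving out shDpep2.759 replicate 1 or replicate 2 gave -0.38 and -2.39.

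For the other tested members the hairpins could not be told apart, within intervals that differ in width. The difference was -0.27 (95% interval -0.60 to 0.07, edgeR adjusted p = 0.434) for Fads1 and -0.16 (-0.57 to 0.25, adjusted p = 0.713) for Fads2. For Fads3, at 10 to 35 counts per library, it was -0.47 with the widest interval (-1.44 to 0.50, adjusted p = 0.645). It was 0.16 (-0.12 to 0.43, adjusted p = 0.585) for Elovl5, 0.14 (-0.21 to 0.49, adjusted p = 0.711) for Elovl6 and -0.05 (-0.48 to 0.37, adjusted p = 0.916) for Elovl1. The difference for Dpep2 itself was -0.14 (-0.51 to 0.23, adjusted p = 0.725).

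The shDpep2.759 libraries had a chi-square of 43.41 per degree of freedom, against 14.93 to 25.22 for the other pairs of the same hairpin. This measure gives most weight to genes with many counts, such as Gm28661 with 20908 and 1569 counts in these libraries. Over 9993 genes with a mean of at least 5 CPM, the median ratio of the higher to the lower library was 1.13-fold within shDpep2.968 and 1.15-fold within shDpep2.759. Scd1 was 4.07-fold and Scd2 1.69-fold higher in shDpep2.759 replicate 1 than in replicate 2. Scd1 ranked 6 and Scd2 ranked 218 among those genes by the log2 ratio of shDpep2.759 replicate 1 over replicate 2. The higher of the shDpep2.759 libraries was 1.54-fold above the lower for Fads2 and 1.25-fold for Fads1. Within shDpep2.968 the higher library was 1.51-fold above the lower for Scd1 and 1.21-fold for Scd2, and within shNT the highest was 1.40-fold and 1.08-fold above the lowest.

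Set on a common scale by dividing CPM by the length of the longest annotated transcript in kilobases (kb), Scd2 had the highest level of the family with shNT, at 128 ± 4.78 CPM per kb (SD, n = 3). Fads1 (54.6 ± 6.39), Elovl1 (51.8 ± 13.0), Elovl5 (50.5 ± 2.39) and Fads2 (45.8 ± 5.90) followed with overlapping ranges. Within each shNT library Fads1 nevertheless lay above Fads2. Scd1 (16.9 ± 2.83), Elovl6 (5.78 ± 0.721) and Fads3 (0.451 ± 0.0599) came after them in non-overlapping steps. With shDpep2.968 the order was led by Elovl1 (63.2 ± 4.11 CPM per kb, n = 2) and Elovl5 (45.3 ± 4.38), and Scd2 was at 24.8 ± 3.29. With shDpep2.759 Elovl1 (65.6 ± 2.82, n = 2) stood above Scd2 (47.1 ± 17.1), whose libraries spanned the Elovl5 level of 40.6 ± 0.156. The order depends on which transcript length is used: with the median length, Elovl5 was at 220.4 CPM per kb with shNT, above Scd2.

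The summed level of the family was 184 and 178 CPM per kb with shDpep2.968 and 228 and 191 CPM per kb with shDpep2.759, against 345, 380.2 and 336 CPM per kb with shNT. Desaturases made up 38.6% and 35.6% of that sum with shDpep2.968 and 52.2% and 40.7% with shDpep2.759, against 66.2%, 68.9% and 73.2% with shNT. The groups did not overlap. With median transcript lengths the desaturase share was 26.5% and 23.3% with shDpep2.968 and 37.2% and 27.8% with shDpep2.759, against 48.8%, 52.9% and 55.0% with shNT, and the groups did not overlap either.

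**Figure D4:**
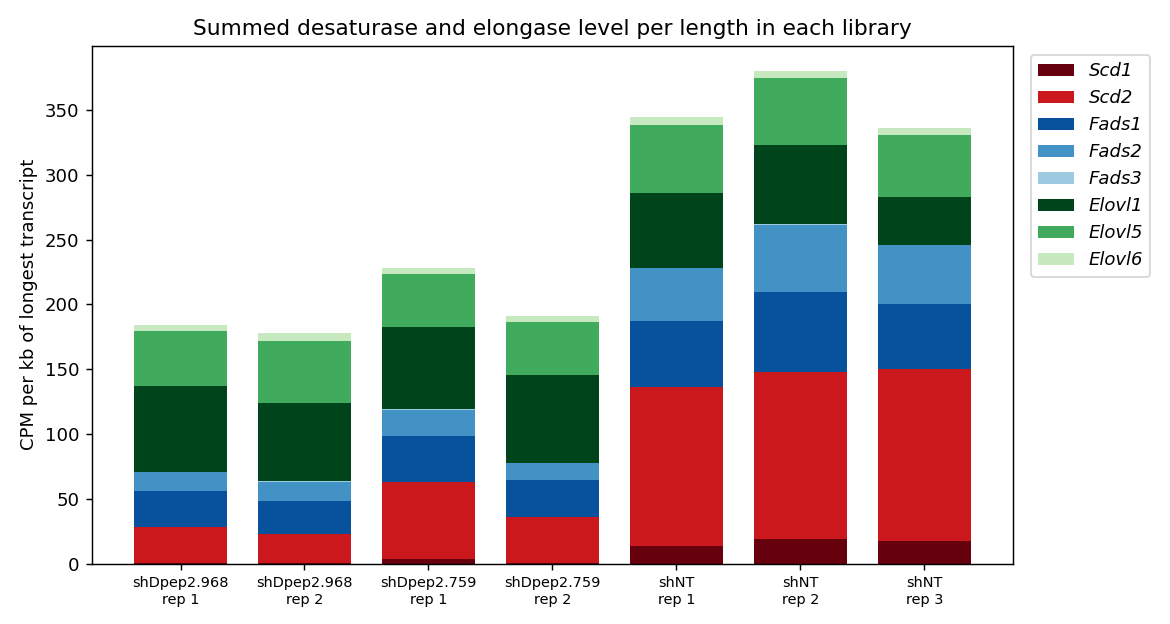
Summed level of the family in each library, in CPM per kb of the longest transcript, stacked by gene, with stearoyl-CoA desaturases in red, the Fads genes in blue and elongases in green. The hairpin libraries reach 178 to 228 CPM per kb and the shNT libraries 336 to 380.2, and the red and blue parts make up most of that distance.

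The genes most like a member were taken for the members with the lowest and the highest averaged value, by Pearson's r of log2 CPM over the 7 libraries among 9527 genes. The r values mix differences between and within groups and are given as a description. For Scd1 these were Rarg (r = 0.997), Scd2 (0.995), Tgm1 (0.992), Entpd1 (0.991) and Dgka (0.99). Rarg, a retinoic acid receptor, had 8.96 and 8.29 CPM in the shDpep2.968 libraries and 12.9 and 8.96 CPM in the shDpep2.759 libraries, against 16.6, 19.7 and 18.6 CPM in the shNT libraries. Like Scd1, it was highest of the hairpin libraries in shDpep2.759 replicate 1. For Elovl1 they were Lsm2 (0.976), Rnasek (0.969), Ss18 (0.958), Hypk (0.946) and Zfp296 (0.944), each of which was lowest in shNT replicate 3.

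The rest of the pathway was read from 9 gene lists with 88 tested genes. These lists were written with earlier results of these data known, so the counts and shares called in them are a description. Averaged over both hairpins 15 of them (17%) fell and 2 (2.27%) rose, against 4.15% called lower and 3.44% called higher among all tested genes. In fatty acid synthesis, which supplies the substrates, 4 of 13 tested genes fell and 0 rose averaged over both hairpins (median log2 fold change -0.20). They were Slc25a1, the mitochondrial citrate exporter (-0.75, edgeR adjusted p = 0.00184), Acss2, which makes acetyl-CoA from acetate (-0.84, adjusted p = 0.00581), Acly, which makes it from citrate (-0.60, adjusted p = 0.00698), and Acaca, which makes malonyl-CoA (-0.44, adjusted p = 0.0259). Fasn, the synthase of palmitate, had 426 and 232 CPM in the shDpep2.968 libraries and 242 and 338 CPM in the shDpep2.759 libraries, against 312, 342 and 313 CPM in the shNT libraries (-0.06, edgeR adjusted p = 0.894). The call of Acly was lost without shNT replicate 2 (-0.53), and that of Acaca without shDpep2.968 replicate 2 (-0.38) or shNT replicate 1 (-0.41), 2 (-0.40) or 3 (-0.52).

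The partners of the described enzymes were not called averaged over both hairpins. Of 6 tested enzymes of the other elongation steps 0 were called in either direction (median 0.05). The ketoacyl-CoA reductase Hsd17b12 had an averaged log2 fold change of -0.02 and the dehydratase Hacd3 of 0.22. For Hsd17b12 the hairpins stood on opposite sides of shNT, at 0.25 with shDpep2.968 and -0.29 with shDpep2.759 (difference 0.54, edgeR adjusted p = 0.0998). Tecr was at -0.33 averaged (edgeR adjusted p = 0.155). Of 5 tested cytochrome b5 and cytochrome b5 reductase genes 0 were called averaged (median 0.01). Cyb5b, the cytochrome b5 of the outer mitochondrial membrane, stood at -0.31 averaged (edgeR adjusted p = 0.0627) and Cyb5r3 at 0.01. With shDpep2.968 alone Cyb5b was called lower (-0.43, edgeR adjusted p = 0.0471), a call lost when any single library of that comparison was left out (-0.51 to -0.35).

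Other desaturases and elongases were tested for 3 of 9 genes, of which 0 were called. Degs1, the ceramide-forming dihydroceramide desaturase, had 301 and 333 CPM in the shDpep2.968 libraries and 328 and 326 CPM in the shDpep2.759 libraries, against 291, 249.7 and 238 CPM in the shNT libraries. Its hairpin libraries lay above all shNT libraries (log2 fold change 0.31, edgeR adjusted p = 0.103). Fads6 had a log2 fold change of -0.28 (adjusted p = 0.178) and Elovl3 of -0.09 at 1.09 CPM or less. Elovl2 had 0 counts in every library, Elovl4 2 to 9, Degs2 0 to 4 and Fa2h 0 to 3.

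Genes that activate, store or use the products fell in part. Of 9 tested acyl-CoA synthetases 2 fell and 0 rose, Acsl3 (-0.74, edgeR adjusted p = 0.00361) and Acsf2 (-1.02, adjusted p = 0.00616). Of 14 tested phospholipid acyltransferases 4 fell and 0 rose (median -0.07). Lpcat3, which places polyunsaturated chains into phospholipids, had the lowest value (-0.76, edgeR adjusted p = 0.00247), with Lpcat4 at -0.63 (0.00834), Lpcat2 at -0.52 (0.0161) and Mboat7, which places arachidonate into phosphatidylinositol, at -0.43 (0.0235). The call of Lpcat4 was lost without shNT replicate 2 (-0.52). Those of Lpcat2 and Mboat7 were lost without shDpep2.968 replicate 2 (-0.52 and -0.37), shNT replicate 2 (-0.55 and -0.44) or shNT replicate 3 (-0.43 and -0.45), and that of Mboat7 also without shNT replicate 1 (-0.43).

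Among 9 tested genes that release or oxidise polyunsaturated fatty acids 2 fell and 0 rose. Alox5, the 5-lipoxygenase that starts leukotriene synthesis, had 19.3 and 16.6 CPM in the shDpep2.968 libraries and 15.8 and 12.4 CPM in the shDpep2.759 libraries, against 40.8, 49.0 and 42.4 CPM in the shNT libraries (log2 fold change -1.47, edgeR adjusted p = 6.2e-05). The cyclooxygenase Ptgs1, at 3.34 to 10.1 CPM, had a log2 fold change of -1.09 (edgeR adjusted p = 0.00131). Ptgs2, named after its values were seen, had 382 to 980 CPM and was not called averaged (-0.17, edgeR adjusted p = 0.481). It stood at 0.36 with shDpep2.968 (adjusted p = 0.188) and was called lower with shDpep2.759 (-0.71, adjusted p = 0.0253). That call was lost without shNT replicate 1 (-0.59) or shNT replicate 2 (-0.74), and the value was -0.60 without shDpep2.759 replicate 1. Of 12 tested genes of fatty acid oxidation 1 rose and 0 fell. Cpt1a, which admits long chains to the mitochondrion, had 82.6 and 84.6 CPM in the shDpep2.968 libraries and 57.4 and 70.5 CPM in the shDpep2.759 libraries, against 43.8, 44.1 and 41.2 CPM in the shNT libraries (0.76, edgeR adjusted p = 0.00113).

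Of 17 tested regulators of lipid synthesis 3 fell and 1 rose (median -0.14). Insig1, which holds the SREBP precursors in the endoplasmic reticulum and is itself their target, had 23.6 and 23.2 CPM in the shDpep2.968 libraries and 30.4 and 26.9 CPM in the shDpep2.759 libraries, against 47.0, 58.7 and 56.2 CPM in the shNT libraries (log2 fold change -1.06, edgeR adjusted p = 0.000241). Srebf1 and Srebf2, which encode the precursors, fell by 0.67 (edgeR adjusted p = 0.00288) and 0.59 (adjusted p = 0.0103) averaged over both hairpins. The averaged call of Srebf2 was lost without shNT replicate 2 (-0.50) or shNT replicate 3 (-0.61). By hairpin, Srebf2 was called with shDpep2.968 (-0.67, edgeR adjusted p = 0.0203) and not with shDpep2.759 (-0.50, adjusted p = 0.0708). Srebf1 was called with shDpep2.968 (-0.80, edgeR adjusted p = 0.00588) and with shDpep2.759 (-0.54, adjusted p = 0.0325). The shDpep2.759 call of Srebf1 was lost without shNT replicate 2 (-0.51) or shNT replicate 3 (-0.52). Scap, the escort of the precursors, had a log2 fold change of -0.03 (edgeR adjusted p = 0.906). Nr1h3, which encodes LXR alpha, had 10.1 and 11.6 CPM in the shDpep2.968 libraries and 13.5 and 14.9 CPM in the shDpep2.759 libraries. The shNT libraries had 5.98, 5.92 and 4.13 CPM (log2 fold change 1.21, edgeR adjusted p = 0.00108). Nr1h2, which encodes LXR beta and was named after its values were seen, stood at -0.25 (edgeR adjusted p = 0.209). A link of either gene to the desaturase levels was not tested.

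**Figure D5:**
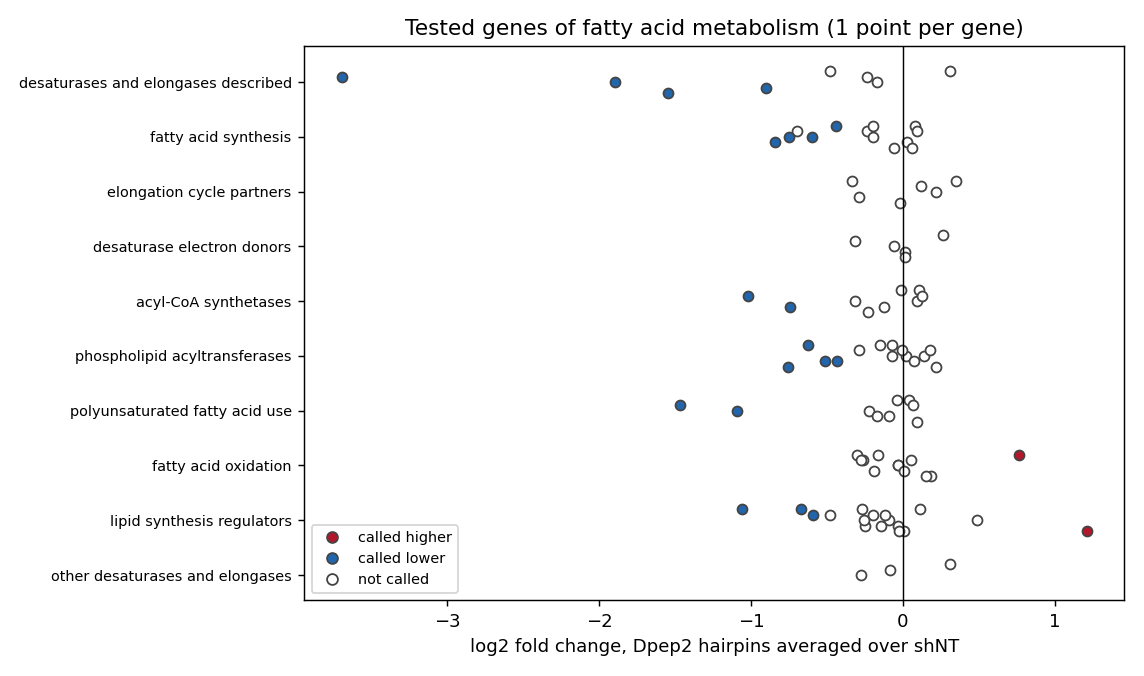
Averaged log2 fold change of the Dpep2 hairpins over shNT for each tested gene of the family (top line) and of the 9 companion lists, 1 point per gene, with filled points for genes called higher or lower by edgeR. Scd1 lies at -3.70, and no gene of the companion lists lies below -1.47 (Alox5).

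By single hairpin, 16 of the 88 list genes (18.2%) were called lower and 2 (2.27%) higher with shDpep2.968, where 2.96% and 2.29% of all tested genes were. With shDpep2.759 it was 8 lower (9.09%) and 2 higher (2.27%), where 2.00% and 2.72% of all tested genes were. These shares too describe lists written with earlier results known. The phospholipid acyltransferases gave 4 calls for shDpep2.968 but 0 for shDpep2.759, and fatty acid synthesis gave 4 for shDpep2.968 but 1 for shDpep2.759. Of the 18 calls with shDpep2.968, 14 were lost without shDpep2.968 replicate 2, 10 without shNT replicate 3, 7 without shNT replicate 2 and 6 without shDpep2.968 replicate 1. Of the 10 calls with shDpep2.759, 5 were lost without shNT replicate 2 and as many (5) without shNT replicate 3. The direct test between hairpins called 3 genes: Acly (-0.74, edgeR adjusted p = 0.0401) and Lpcat3 (-0.83, adjusted p = 0.0338) were lower with shDpep2.968, and the cyclooxygenase Ptgs2, named after its values were seen, was higher (1.07, adjusted p = 0.0173). These calls ended when shDpep2.968 replicate 1, shDpep2.968 replicate 2 or shDpep2.759 replicate 1 was left out, at log2 differences of -0.90 to -0.59 for Acly, -0.84 to -0.65 for Lpcat3 and 0.88 to 1.26 for Ptgs2. Those of Acly and Lpcat3 ended also without shNT replicate 1 (-0.74 and -0.83) or shNT replicate 3 (-0.72 and -0.81), and that of Acly without shNT replicate 2 (-0.72).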

How the data were processed

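The deposited table gives counts as whole numbers, with 55417 symbols as rows and 7 libraries as columns. Per the labels' protocols, libraries were made from total RNA with a stranded kit and sequenced in pairs of 150 bp. The submitters' processing notes name Trim Galore, Salmon (no versions or roles) and the build hg38, which is human whereas the symbols are mouse. The annotation, the strand setting and any rounding of estimated counts were not given in the sources used here. Reads shared by similar genes may therefore have been divided by a model.

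The fit was made with edgeR 4.0.16 under R 4.3.3 (filterByExpr, TMM, robust quasi-likelihood, 1 mean per group over all 7 libraries, 4 residual degrees of freedom). P-values were Benjamini-Hochberg adjusted over 13329 genes with a threshold of 0.05. The common biological coefficient of variation was 13.8%. No pair of replicates agreed within sampling noise, with chi-square values of 14.93 to 43.41 per degree of freedom. The fits were tested on simulated data. The 9 members and the gene lists were chosen with earlier results of these data known. Named were all members, Dpep2, up to 4 called genes per list with the smallest p (otherwise the 2 with the highest mean CPM), Srebf1, Srebf2, Scap, Insig1, and the 5 genes most like the extreme members. Transcript lengths and 31-base words came from GENCODE M21, promoters and gene order from RefSeq. Alternatives were other size factors and filters, DESeq2 1.42.0, limma-voom (limma 3.58.1), a replicate block, a GC and length correction, 1 hairpin group, and each library left out.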

Additional observations from a re-analysis of the deposited data

How the results depend on the processing

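Of 488 log2 fold changes of members under the alternatives, 455 kept their direction and their side of the threshold, 11 gained a call, 15 lost one and 7 reversed, all of them small and uncalled. Leaving out single libraries put Elovl6 with shDpep2.968 at -0.25 to 0.042 (above 0 without shDpep2.968 replicate 1 or shNT replicate 1). Between hairpins it put Fads3 at -1.26 to 0.042, Elovl1 at -0.11 to 0.0085 and Elovl6 at -0.013 to 0.29 (reversed without shDpep2.968 replicate 2), and Fads2 at -0.43 to 0.19 (reversed without shDpep2.759 replicate 1). The GC and length correction put Elovl1 there at 0.028. The cause was not tested.

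Genes called, averaged, with shDpep2.968, with shDpep2.759 and between hairpins, numbered 1012, 700, 630 and 112. They numbered 1590, 1443, 1131 and 669 with no low-count filter and 2263, 1824, 1783 and 578 with the GC and length correction, which moved the higher share between hairpins to 45.2%, against 30.4%. DESeq2 called 376 between hairpins, and 1 hairpin group gave 540. Leaving out single libraries gave 321 to 1468, 69 to 1309, 253 to 768 and 6 to 1070, with 3 to 4, 2 to 4, 3 to 4 and 0 to 2 members called. Between hairpins 1 member (Scd2) was called with no low-count filter, with DESeq2 and with the replicate block. Leaving out a hairpin library left 1 library of that hairpin, so calls in such fits rest on the spread within the other groups.

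Deviations from the group mean had correlations of -0.225 to 0.071 between libraries of the same replicate number. In a group of 2 libraries these deviations mirror each other, so the correlations cannot decide whether the numbers pair the samples. The labels do not say. The replicate block gave 404, 308 and 312 calls against shNT and ended those of Scd1 averaged (-3.83) and with shDpep2.968 (-4.64). It also ended, of the list genes, the averaged calls of Acaca, Lpcat2 and Mboat7 (-0.51 to -0.42), 9 of 18 calls with shDpep2.968, 4 of 10 with shDpep2.759 and that of Acly between hairpins (-0.74). Fitting 1 hairpin group ended the averaged calls of Acaca, Acly, Acss2, Lpcat2, Lpcat3 and Mboat7 (-0.81 to -0.43). Few counts limit the precision for Fads3 and Elovl7.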
